A study of Mus musculus with 6 samples.

Results

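The genes described here encode the AMPA receptor, the main ion channel of fast excitatory transmission in the brain, and the membrane proteins that travel with it. They were taken by symbol from the deposited expression matrix: the subunit genes *Gria1*, *Gria2*, *Gria3*, and *Gria4*, and the auxiliary genes *Cacng2*, *Cacng3*, *Cacng8*, *Cnih2*, *Cnih3*, and *Shisa9*. All 10 were present among the 14477 genes of the matrix. RNA came from the hippocampus of untreated mice on a C57BL/6J background, as 1 library per mouse after removal of ribosomal RNA. The groups of 3 mice compared were Phf21bΔ4/Δ4 (replicates 2, 3, and 6), which carry on both alleles a CRISPR/Cas9 deletion in exon 4 of *Phf21b*, and Phf21b+/+ littermates (replicates 5, 7, and 8), which carry none. The deletion is present in every cell of the body, so it is not restricted to neurons or to the hippocampus. Young adult mice of both sexes were used in the study, and the sex, the age, and the dissection record of these 6 mice are not given in the sources used here. The labels do not say whether mice shared a litter, and the p-values set each difference against the spread between these mice.

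AMPA receptors are assembled from GluA subunits, encoded by *Gria1* to *Gria4*, and open when glutamate is released onto the postsynaptic membrane. Auxiliary proteins join the subunits, and among them they carry the receptor out of the endoplasmic reticulum, anchor it at the synapse, and alter its closing and desensitization. In the hippocampus the channel carries most of the fast current between pyramidal neurons, and its movement into and out of synapses underlies long-term potentiation and depression. The study asked what the depletion of PHF21B, a chromatin reader with a PHD finger, does to genes of synaptic plasticity, which include those of the AMPA receptor.

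The subunits share a pore loop whose glutamine codon, the Q/R site, sets how much calcium the channel passes. In *Gria2* RNA this codon is edited from adenosine to inosine by ADAR2, and receptors with edited GluA2 pass little calcium. The 45 bases around this codon are given for each subunit gene, with the codon in capitals, as the GENCODE transcripts of GRCm38 give them, 5′ to 3′ on the strand of the gene. They show how alike the subunit transcripts are where the channel is lined.
*Gria1*: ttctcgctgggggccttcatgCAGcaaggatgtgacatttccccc
*Gria2*: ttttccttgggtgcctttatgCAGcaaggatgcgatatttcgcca
*Gria3*: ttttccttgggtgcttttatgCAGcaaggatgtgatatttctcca
*Gria4*: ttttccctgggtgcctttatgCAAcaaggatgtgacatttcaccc

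The windows lie at chr11:57243073-57243117 (plus strand, exon 11) in *Gria1*, chr3:80706890-80706934 (minus strand, exon 11) in *Gria2*, chrX:41610244-41610288 (plus strand, exon 11) in *Gria3*, and chr9:4464116-4464160 (minus strand, exon 12) in *Gria4*. All 4 windows are coding and translate to the same peptide, although pairs of them differed at between 3 bases (*Gria2* and *Gria3*) and 9 bases (*Gria1* and *Gria2*, and *Gria1* and *Gria3*). *Gria4* was the gene with CAA at the site, and the other 3 had CAG. A level per gene holds no information on editing at this codon, so the edited share was not analysed here.

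Depth was alike in the 6 libraries, with 20495605 to 24881257 reads on the listed genes, and no AMPA receptor gene had fewer than 388 reads in a mouse. *Phf21b* itself had 2.15, 3.57, and 3.87 CPM (reads scaled to library size) in Phf21bΔ4/Δ4 replicates 2, 3, and 6, and 6.50, 5.23, and 6.47 CPM in Phf21b+/+ replicates 5, 7, and 8, so the genotypes did not overlap (log2 fold change -0.96, FDR 0.141). Markers of hippocampal neurons were present in every mouse, but the libraries differed in the marker lists of hippocampal subfields and of tissue next to the hippocampus. Summed over 7 dentate granule cell markers, the level was 145.5, 143, and 540 CPM in Phf21bΔ4/Δ4 replicates 2, 3, and 6, against 568 to 677 CPM in Phf21b+/+ mice, and 0 of the 7 were called. All 7 had a log2 change below 0, with a median of -1.48. In 5 of them every Phf21bΔ4/Δ4 mouse lay below every Phf21b+/+ mouse, where 16.0% of all genes did. Summed over 7 CA1 markers the level was 926 to 1041 CPM in Phf21bΔ4/Δ4 and 337 to 426 CPM in Phf21b+/+ mice, and 3 of the 7 were called higher. All 9 medial habenula markers were called lower, with sums of 4.96 to 8.56 CPM in Phf21bΔ4/Δ4 and 150.5 to 210 CPM in Phf21b+/+ mice. *Chat* and *Irx2* of that list had 0 reads in Phf21bΔ4/Δ4 replicates 3 and 6, and *Pou4f1* had 0 reads in replicate 6. Choroid plexus markers summed to 22.5 to 79.5 CPM in Phf21bΔ4/Δ4 mice and to 22.2, 15490, and 954 CPM in Phf21b+/+ replicates 5, 7, and 8, with 0 of 5 called and *Kcnj13* at 0 reads in Phf21bΔ4/Δ4 replicate 6. Of 6 thalamus markers 1 was called lower, with sums of 46.2 to 132.5 CPM in Phf21bΔ4/Δ4 and 112 to 271 CPM in Phf21b+/+ mice. Most of the medial habenula markers and some CA1 markers are also on the paper's own list of differing genes from these libraries. Their calls are therefore not independent of that list. In bulk tissue a smaller number of cells of a type and less RNA per cell cannot be told apart.

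No AMPA receptor gene passed the test for a difference between genotypes. With limma's moderated test on the log2 CPM values, 2-sided and adjusted by the Benjamini-Hochberg method over all 14477 genes, a gene was called where the FDR was under 0.1 and the genotypes differed more than 1.3-fold. By this rule 0 of the 10 were called, where 1.22% of all genes were (176 genes). The mean was higher in Phf21bΔ4/Δ4 mice for 10 of the 10, where 47.6% of all genes had a log2 change above 0. The median log2 change over the 10 was 0.30 and over all genes -0.019. At an unadjusted p under 0.05 there were 2 of the 10, *Gria2* and *Gria3*, a share below the 23.6% of all genes. These were also the genes whose genotypes did not overlap, which makes 2 of 10 where 15.0% of all genes lay higher in every Phf21bΔ4/Δ4 mouse.

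**Figure D1:**
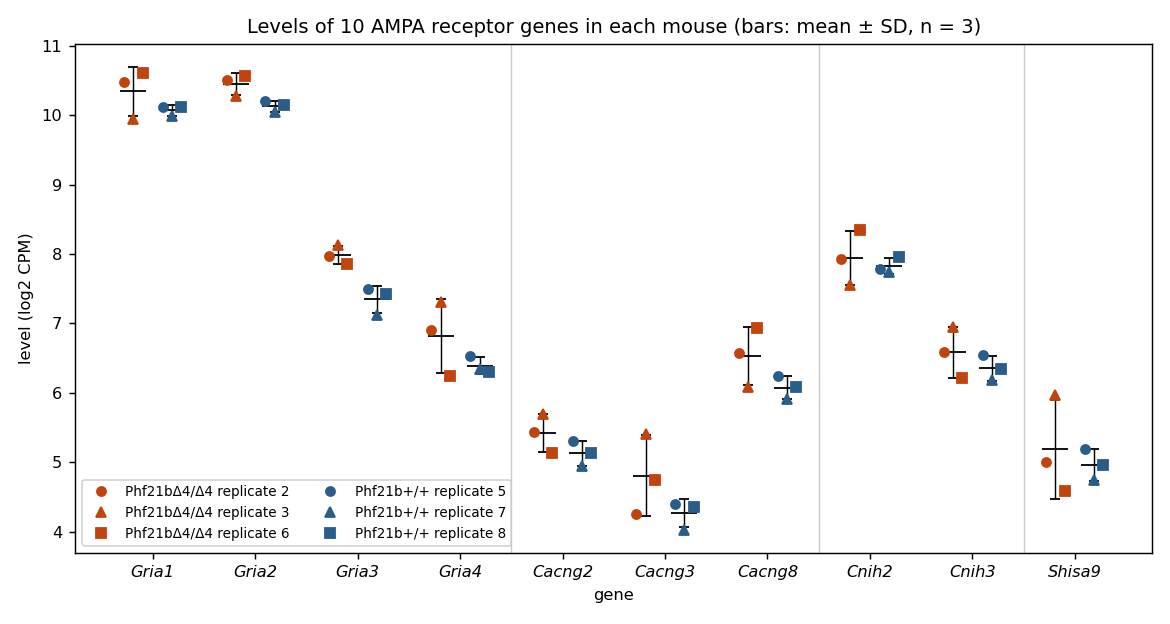
Level of each AMPA receptor gene (log2 CPM, vertical axis) in the 6 mice, with Phf21bΔ4/Δ4 mice in red, Phf21b+/+ mice in blue, a marker shape for each replicate, and black bars for the mean ± SD (n = 3). The red points of *Gria2* and *Gria3* all lie above the blue ones, and those of the other 8 genes overlap them.

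*Gria1* encodes GluA1, the subunit whose insertion into synapses is tied to potentiation, and spans chr11:57011387-57330244. It had 1428, 982, and 1551 CPM in Phf21bΔ4/Δ4 replicates 2, 3, and 6, and 1110, 1011, and 1109 CPM in Phf21b+/+ replicates 5, 7, and 8. Replicates 2 and 6 lay above every Phf21b+/+ mouse, and replicate 3 lay below all of them. The means were 1320 ± 299 CPM and 1077 ± 56.8 CPM (SD, n = 3), with a log2 fold change of 0.27 (SE 0.18, 95% interval -0.17 to 0.71, FDR 0.386 by limma). The interval covers both a small decrease and an increase, so the difference was within the spread between mice. The log2 change was 0.47 without Phf21bΔ4/Δ4 replicate 3 and 0.14 without replicate 6, and it turned to -0.02 with quantile normalization. By quantitative PCR the paper found *Gria1* RNA tending to be lower in Phf21bΔ4/Δ4 mice, without a significant change. It also reports fewer clusters of the GluA1 protein in their hippocampus. These are other measures on other numbers of mice, and the difference in direction was not tested.

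*Gria2* encodes GluA2, the subunit that limits calcium entry, and spans chr3:80681450-80802835. Its level was 1444, 1237, and 1520 CPM in Phf21bΔ4/Δ4 replicates 2, 3, and 6, and 1187, 1063, and 1126 CPM in Phf21b+/+ replicates 5, 7, and 8. Every Phf21bΔ4/Δ4 mouse lay above every Phf21b+/+ mouse, with the nearest pair at 1237 and 1187 CPM. The log2 fold change was 0.31 (SE 0.12, 95% interval 0.02 to 0.60, FDR 0.193 by limma), which missed the threshold. Leaving out each mouse in turn gave log2 changes of 0.25 to 0.40. The change was 0.17 after a correction for exon length and 0.04 with quantile normalization.

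*Gria3* encodes GluA3, which joins GluA2 in receptors that cycle steadily at synapses, and spans chrX:41400854-41678601. It had 250.0, 280.0, and 233 CPM in Phf21bΔ4/Δ4 replicates 2, 3, and 6, and 180.0, 140.0, and 173 CPM in Phf21b+/+ replicates 5, 7, and 8. Its log2 fold change was the highest of the 10 genes, and the lowest Phf21bΔ4/Δ4 mouse was well above the highest Phf21b+/+ mouse. On the log2 scale the difference was 0.64 (SE 0.12, 95% interval 0.35 to 0.93), or 1.56-fold, with an FDR of 0.107 by limma, just outside the threshold. The FDR was 0.0324 without Phf21bΔ4/Δ4 replicate 6, a setting in which 19.5% of all genes were called, and 0.315 without replicate 2, and the log2 change lay between 0.53 and 0.71 with each mouse left out. *Gria3* was the member that several alternatives called, at an FDR of 0.0939 with centring on the median, 0.0826 with the correction for exon length, and 0.0119 with weighted mice, where 198, 188, and 3549 of all genes were called. *Gria3* is X-linked, and *Xist*, which is transcribed from the inactive X chromosome, had 2059 to 4532 reads in each of the 6 mice.

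*Gria4* encodes GluA4, abundant in interneurons and in early development, and spans chr9:4417896-4796234. It had 121, 158, and 75.7 CPM in Phf21bΔ4/Δ4 replicates 2, 3, and 6, and 92.7, 81.0, and 78.7 CPM in Phf21b+/+ replicates 5, 7, and 8. Replicates 2 and 3 lay above all Phf21b+/+ mice and replicate 6 below all of them. Between genotypes the log2 fold change was 0.43 (SE 0.25, 95% interval -0.17 to 1.03, FDR 0.325 by limma). Without replicate 6 the log2 change was 0.72 with an FDR of 0.0346, where 19.5% of all genes were called, and without replicate 3 it was 0.19. Weighting the mice, with replicate 6 kept, gave an FDR of 0.033, where 24.5% of all genes were called.

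**Figure D2:**
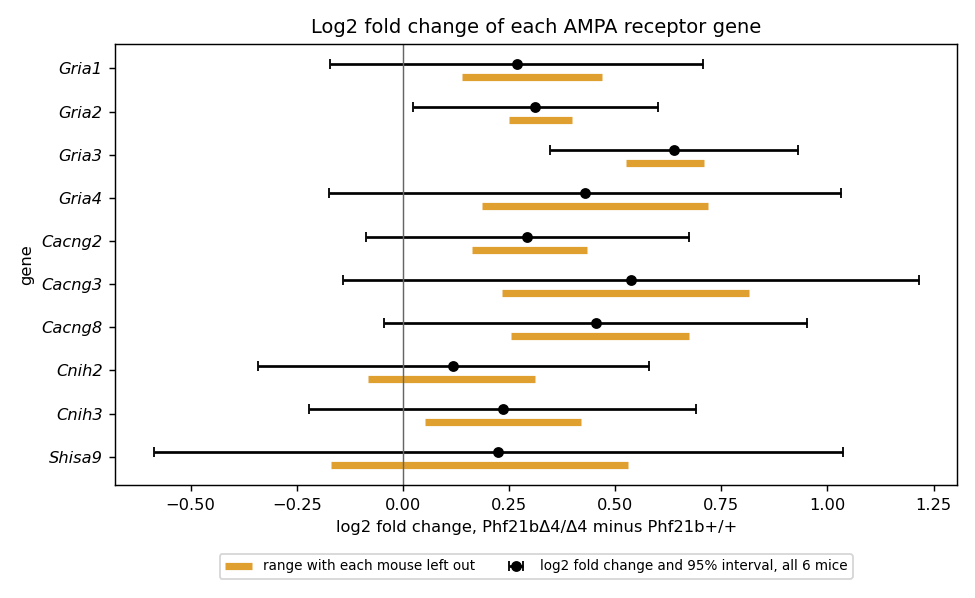
Log2 fold change of each AMPA receptor gene, Phf21bΔ4/Δ4 minus Phf21b+/+ (horizontal axis), with black points and bars for limma's estimate and its 95% interval over all 6 mice and orange bars for the range with each mouse left out. All 10 points lie above 0, the intervals of *Gria2* and *Gria3* do not reach 0, and the orange bars of *Cnih2* and *Shisa9* cross it.

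Transmembrane AMPA receptor regulatory proteins (TARPs) bind the subunits, tie them to the postsynaptic scaffold, and slow the channel. *Cacng2* (stargazin) lies on chromosome 15, as *Phf21b* does, 6.67 Mb away, and spans chr15:77991748-78120028. It had 43.5, 51.5, and 35.3 CPM in Phf21bΔ4/Δ4 replicates 2, 3, and 6, and 39.7, 30.9, and 35.1 CPM in Phf21b+/+ replicates 5, 7, and 8. The genotypes overlapped through replicate 6, and the log2 fold change was 0.29 (SE 0.16, 95% interval -0.09 to 0.67, FDR 0.295 by limma). Without replicate 6, when 19.5% of all genes were called, it was 0.43 with an FDR of 0.0878. Exons of *Cacng2* overlap the opposite-strand gene *A730060N03Rik* over 323 bases, and that gene had 14 to 30 reads in a mouse, against 732 or more for *Cacng2*.

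*Cacng3*, a close relative of stargazin at chr7:122670492-122769393, had 19.0, 42.5, and 27.0 CPM in Phf21bΔ4/Δ4 replicates 2, 3, and 6, and 21.2, 16.4, and 20.5 CPM in Phf21b+/+ replicates 5, 7, and 8. Replicate 3 was far above the other mice, while replicate 2 lay among the Phf21b+/+ mice. Its log2 fold change was 0.54 (SE 0.28, 95% interval -0.14 to 1.22, FDR 0.285 by limma), and it was 0.23 without replicate 3. Although the estimate was the second highest of the 10, its interval was among the widest.

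*Cacng8*, the TARP most typical of the hippocampus, where it holds receptors in the membrane outside and inside synapses, spans chr7:3390683-3415648. It had 95.1, 68.1, and 122 CPM in Phf21bΔ4/Δ4 replicates 2, 3, and 6, and 75.4, 60.1, and 67.5 CPM in Phf21b+/+ replicates 5, 7, and 8. Replicates 2 and 6 lay above the Phf21b+/+ mice and replicate 3 among them. Over all 6 mice the log2 fold change was 0.45 (SE 0.21, 95% interval -0.05 to 0.95, FDR 0.238 by limma). It was 0.67 without Phf21bΔ4/Δ4 replicate 3 and 0.26 without replicate 6.

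Cornichon proteins escort AMPA receptors out of the endoplasmic reticulum and, in principal neurons, stay with them at the surface. *Cnih2* spans chr19:5092868-5098521 and had 244, 188, and 325 CPM in Phf21bΔ4/Δ4 replicates 2, 3, and 6, and 219, 214, and 248 CPM in Phf21b+/+ replicates 5, 7, and 8. Replicate 6 was the highest and replicate 3 the lowest of all 6 mice. The log2 fold change was 0.12 (SE 0.19, 95% interval -0.34 to 0.58, FDR 0.717 by limma), and it turned to -0.08 without replicate 6. Exons of *Cnih2* overlap those of the opposite-strand gene *Yif1a* over 14 bases, and that gene had 284 to 455 reads in a mouse, against 3953 or more for *Cnih2*. *Cnih3*, its paralog at chr1:181352628-181460641, had 96.4, 124, and 74.4 CPM in Phf21bΔ4/Δ4 replicates 2, 3, and 6, and 92.9, 72.5, and 80.8 CPM in Phf21b+/+ replicates 5, 7, and 8. Its order among Phf21bΔ4/Δ4 mice was the reverse of that of *Cnih2*, and its log2 fold change was 0.24 (SE 0.19, 95% interval -0.22 to 0.69, FDR 0.460 by limma). Without replicate 3 it was 0.05.

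*Shisa9* (CKAMP44), an auxiliary protein known from dentate granule cells that slows recovery of the receptor from desensitization, spans chr16:11984113-12270902. It had 32.2, 62.9, and 23.8 CPM in Phf21bΔ4/Δ4 replicates 2, 3, and 6, and 36.4, 26.7, and 31.2 CPM in Phf21b+/+ replicates 5, 7, and 8. Replicate 3 was the highest and replicate 6 the lowest of all 6 mice. The log2 fold change of 0.22 (SE 0.34, 95% interval -0.59 to 1.04, FDR 0.696 by limma) rested on replicate 3, and it turned to -0.17 without that mouse.

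The Phf21bΔ4/Δ4 mice differed among themselves more than the Phf21b+/+ mice in 9 of the 10 genes, where the same held for 62.8% of all genes. Replicates 3 and 6 lay at opposite ends for most of them. *Gria1*, *Gria2*, *Cacng8*, and *Cnih2* were highest in replicate 6 and lowest in replicate 3. The other 6 were highest in replicate 3, and of these *Gria3*, *Gria4*, *Cacng2*, *Cnih3*, and *Shisa9* were lowest in replicate 6. The log2 difference of replicate 3 from replicate 6 ran from -0.84 (*Cacng8*), -0.79 (*Cnih2*), and -0.66 (*Gria1*) to 1.06 (*Gria4*) and 1.40 (*Shisa9*). In Phf21b+/+ mice, by contrast, 9 of the 10 were lowest in replicate 7. The log2 range was between 0.13 (*Gria1*) and 0.45 (*Shisa9*) among Phf21b+/+ mice and between 0.26 (*Gria3*) and 1.40 (*Shisa9*) among Phf21bΔ4/Δ4 mice. Dentate granule cell markers separated replicates 2 and 3 from replicate 6. Markers of CA2 and CA3 pyramidal neurons summed to 335, 218, and 423 CPM in replicates 2, 3, and 6, and to 359 to 395 CPM in Phf21b+/+ mice. The part of either list in the levels of these genes was not tested.

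**Figure D3:**
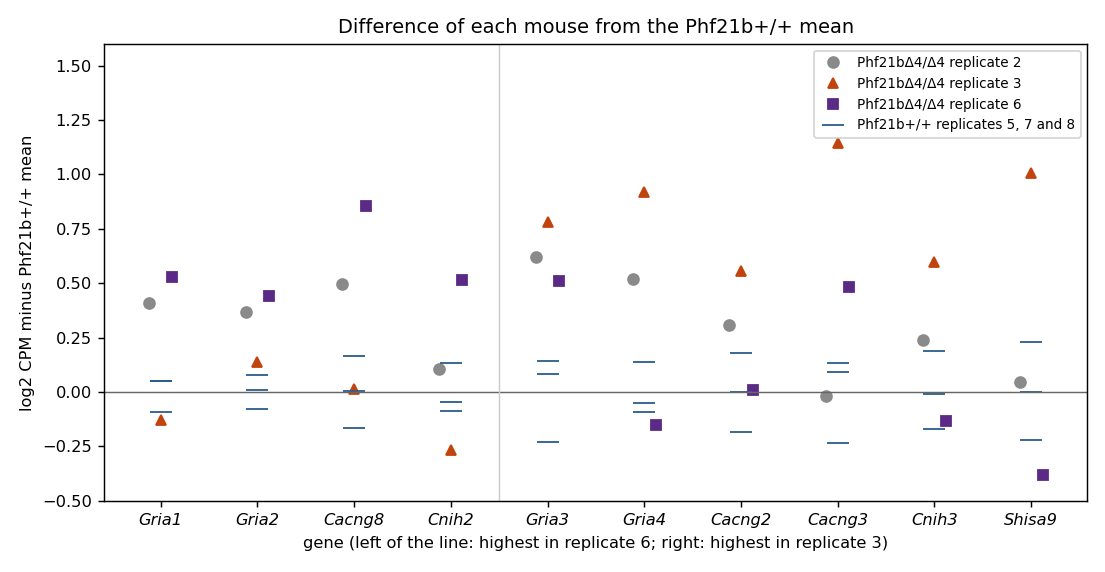
Log2 CPM of each mouse minus the Phf21b+/+ mean of the gene (vertical axis) for the 10 AMPA receptor genes, with Phf21bΔ4/Δ4 replicates 2 (grey circles), 3 (red triangles), and 6 (purple squares) and blue dashes for the Phf21b+/+ mice. The purple squares lie highest for the 4 genes left of the line, and the red triangles for the 6 genes right of it.

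Levels were compared between genes as CPM per kb of annotated exon, which understates a gene whose longest annotated exons are little used. In Phf21b+/+ mice *Gria1* (178 ± 9.39 CPM per kb, SD, n = 3) and *Cnih2* (166 ± 13.6) led and overlapped each other. *Gria2* followed at 72.4 CPM per kb (68.4 to 76.4 over the 3 mice), apart from its neighbours on both sides. *Cnih3* (29.8 ± 3.72) and *Cacng8* (28.9 ± 3.26) overlapped, as did *Gria3* (16.6 ± 2.19) and *Gria4* (13.3 ± 1.19). *Cacng3* (6.97 ± 0.938), *Cacng2* (6.40 ± 0.801), and *Shisa9* (5.99 ± 0.928) came last, and each overlapped the next. In Phf21bΔ4/Δ4 mice the order was the same except that *Cacng8* (40.5 ± 11.4) stood before *Cnih3* (35.7 ± 8.98), and these overlapped. Of *Cacng2*, *Cacng3*, and *Cacng8*, the last had the highest mean level per kb in both genotypes, and *Cnih2* was above *Cnih3*. Other TARP genes were not ranked per kb.

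The make-up of the subunit pool was compared as the share of each gene in the summed CPM per kb of the 4 subunit genes, which does not depend on library scaling. The size of a share does depend on annotated exon length, 15.55 kb for *Gria2* and 6.04 kb for *Gria1*. Without that division the mean of *Gria2* was above that of *Gria1*, at 1400 against 1320 CPM in Phf21bΔ4/Δ4 and 1125 against 1077 CPM in Phf21b+/+ mice. *Gria1* took 63.2%, 55.0%, and 65.8% in Phf21bΔ4/Δ4 replicates 2, 3, and 6, and 62.7%, 63.7%, and 64.2% in Phf21b+/+ replicates 5, 7, and 8. *Gria2* took 24.9% to 26.9% in Phf21bΔ4/Δ4 mice and 25.3% to 26.1% in Phf21b+/+ mice. *Gria3* took 6.80%, 9.60%, and 6.06% in Phf21bΔ4/Δ4 and 6.23%, 5.39%, and 6.12% in Phf21b+/+ mice in the same order, and *Gria4* took 5.12%, 8.49%, and 3.08% and 5.02%, 4.89%, and 4.37%. Replicate 3 stood apart with a smaller share of *Gria1* and larger shares of *Gria3* and *Gria4*. The mean share of *Gria1* was 61.3% ± 5.65 in Phf21bΔ4/Δ4 and 63.5% ± 0.759 in Phf21b+/+ mice (SD, n = 3), and the genotypes overlapped for all 4 genes. Exact permutation tests over the mice, 2-sided and with a smallest possible p of 0.1, gave p = 0.8, 0.8, 0.3, and 0.7 for *Gria1* to *Gria4* (0.6 to 0.8 after adjustment over the 6 shares and ratios compared). Without replicate 3 the difference in the *Gria1* share turned from -2.19 to 0.99 percentage points and that of *Gria4* from 0.81 to -0.66.

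**Figure D4:**
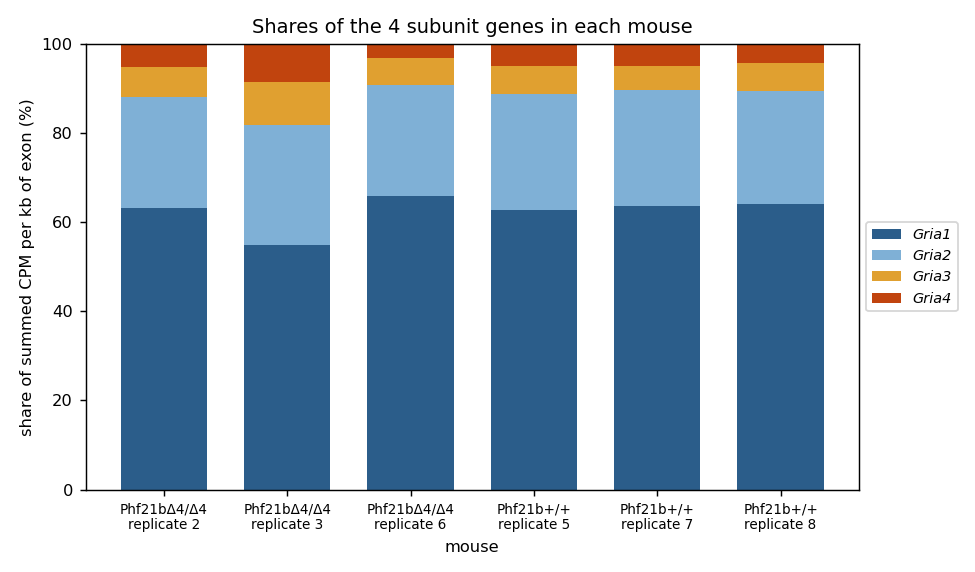
Share of *Gria1*, *Gria2*, *Gria3*, and *Gria4* in their summed CPM per kb of exon (%, vertical axis), with 1 stacked bar per mouse. The bar of Phf21bΔ4/Δ4 replicate 3 has the smallest *Gria1* part (55.0%) and the largest *Gria3* and *Gria4* parts (9.60% and 8.49%).

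The supply of auxiliary genes relative to the subunits was also compared within each mouse. The log2 ratio of summed *Cacng2*, *Cacng3*, and *Cacng8* to the summed subunit genes was taken in CPM, without the other TARP genes. It was -4.36, -4.04, and -4.20 in Phf21bΔ4/Δ4 replicates 2, 3, and 6, and -4.24, -4.42, and -4.34 in Phf21b+/+ replicates 5, 7, and 8. The genotypes overlapped, with a difference of 0.13 (exact permutation test, 2-sided, p = 0.3, 0.6 adjusted). The log2 ratio of *Cnih2*, *Cnih3*, and *Shisa9* to the subunits was -3.12, -2.83, and -3.00 in Phf21bΔ4/Δ4 and -2.88, -2.87, and -2.79 in Phf21b+/+ mice in the same order. Its difference was -0.13 (exact permutation test, 2-sided, p = 0.3, 0.6 adjusted), again with overlap, although replicate 3 had the highest of the Phf21bΔ4/Δ4 ratios in both comparisons.

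Other genes of the receptor pathway were read from lists of further auxiliary proteins, extracellular clustering proteins, and intracellular partners. None of the 32 listed was called, where 1.22% of all genes were, and 8 had an unadjusted p under 0.05, a share near the 23.6% of all genes. A log2 change above 0 was found in 22 of the 32, against 47.6% of all genes. In 7 every Phf21bΔ4/Δ4 mouse lay higher than every Phf21b+/+ mouse (15.0% of all genes), and in 3, *Cacng4*, *Cacng5*, and *Adarb1*, every Phf21bΔ4/Δ4 mouse lay lower (16.0% of all genes). *Adarb1*, which encodes ADAR2, had 216, 215, and 222.5 CPM in Phf21bΔ4/Δ4 replicates 2, 3, and 6 and 332, 257, and 222.9 CPM in Phf21b+/+ replicates 5, 7, and 8, with the nearest pair almost level (log2 fold change -0.29, FDR 0.262 by limma). Among the 15 further auxiliary genes the median log2 change was 0.25. *Cacng5*, a TARP-like gene, had the largest difference, with 7.34, 7.10, and 21.6 CPM in Phf21bΔ4/Δ4 replicates 2, 3, and 6 and 22.2, 36.8, and 25.3 CPM in Phf21b+/+ replicates 5, 7, and 8 (log2 fold change -1.40, 95% interval -2.47 to -0.33, FDR 0.160 by limma). Its replicate 6 stood next to the Phf21b+/+ mice, as the dentate granule cell markers did. *Shisa7*, a relative of *Shisa9*, had 48.0, 69.1, and 53.6 CPM in Phf21bΔ4/Δ4 and 35.9, 26.2, and 40.5 CPM in Phf21b+/+ mice in the same order, without overlap (log2 fold change 0.74, FDR 0.141 by limma).

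The 6 extracellular clustering genes, neuronal pentraxins and olfactomedins, had a median log2 change of -0.19. *Nptxr*, the membrane-bound pentraxin, had 1093, 632, and 532 CPM in Phf21bΔ4/Δ4 and 504, 367, and 472 CPM in Phf21b+/+ mice (log2 fold change 0.69, FDR 0.198 by limma), and *Olfm2* had a log2 fold change of 0.47 (FDR 0.568) with overlap. Of the 11 intracellular partners found, 10 had a log2 change above 0, with a median of 0.21. *Nsf*, the ATPase that binds GluA2 and keeps it at the synapse, had 1699, 1404, and 1423 CPM in Phf21bΔ4/Δ4 and 1336, 1009, and 1078 CPM in Phf21b+/+ mice (log2 fold change 0.41, FDR 0.180 by limma). *Gripap1*, which binds the GRIP scaffold, had 88.1, 94.3, and 82.7 CPM against 73.4, 64.9, and 70.1 CPM (log2 fold change 0.35, FDR 0.133). Neither pair of groups overlapped, and neither gene passed the threshold.

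The other ionotropic glutamate receptor lists had higher median log2 changes than the AMPA receptor genes, and no test of that contrast was made. Of 6 NMDA receptor subunit genes, which encode the calcium-permeable partner of AMPA receptors at the same synapses, 0 were called, 6 had a log2 change above 0, and 3 had an unadjusted p under 0.05. Their median log2 change was 0.57, with a range of 0.02 to 0.97, and their summed level was 2417 to 2561 CPM in Phf21bΔ4/Δ4 and 1221 to 1624 CPM in Phf21b+/+ mice. The highest change was that of *Grin2b*, whose RNA by quantitative PCR and protein the paper reports as lower in Phf21bΔ4/Δ4 mice. That difference in direction was not tested. Of 9 kainate and delta receptor genes with their Neto partners, 1 was called higher and 8 had a log2 change above 0, with a median of 0.49. Of these 9, 4 had an unadjusted p under 0.05. Over all genes 1.22% were called, 47.6% had a log2 change above 0, and 23.6% had an unadjusted p under 0.05. Every Phf21bΔ4/Δ4 mouse lay above every Phf21b+/+ mouse in 3 NMDA genes and 2 kainate and delta genes, against 15.0% of all genes. The summed level of the 10 AMPA receptor genes, most of it *Gria1* and *Gria2*, was 3773, 3194, and 3987 CPM in Phf21bΔ4/Δ4 replicates 2, 3, and 6 and 3055, 2716, and 2971 CPM in Phf21b+/+ replicates 5, 7, and 8.

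Genes expressed in all neurons also had higher mean levels in Phf21bΔ4/Δ4 mice, and the AMPA receptor genes were therefore also taken relative to them. Of 6 such markers 0 were called and 6 had a log2 change above 0, with a median of 0.38 and sums of 6948 to 8389 CPM in Phf21bΔ4/Δ4 and 5164 to 6633 CPM in Phf21b+/+ mice. Over all genes 1.22% were called and 47.6% had a log2 change above 0. In 3 neuron markers every Phf21bΔ4/Δ4 mouse lay above every Phf21b+/+ mouse, and 3 had an unadjusted p under 0.05. The shares of all genes were 15.0% and 23.6%. Of 9 interneuron markers 1 was called higher and 9 had a log2 change above 0, with a median of 0.64. At an unadjusted p under 0.05 there were 8 of the 9, against 23.6% of all genes. In 8 every Phf21bΔ4/Δ4 mouse lay above every Phf21b+/+ mouse, where 15.0% of all genes did. The interneuron sums were 1000 to 1404 CPM in Phf21bΔ4/Δ4 and 733 to 835 CPM in Phf21b+/+ mice. Oligodendrocyte markers had a median of -0.18 and markers of CA2 and CA3 pyramidal neurons a median of -0.66, with 0 of 7 called in each list. Of the astrocyte markers 1 of 7 was called lower, and none was called of 5 for oligodendrocyte precursors, 6 for microglia, and 4 for endothelium. Relative to the mean of the 6 neuron markers, the log2 changes of 6 AMPA receptor genes lay below 0 (*Gria1* -0.12, *Gria2* -0.08, *Cacng2* -0.10, *Cnih2* -0.27, *Cnih3* -0.16, and *Shisa9* -0.17), and those of *Gria3* (0.25), *Cacng3* (0.15), *Cacng8* (0.06), and *Gria4* (0.04) lay above 0. On that scale the median log2 change of all genes was -0.41. By the same rule 0 of the 10 were called, where 41.8% of all genes were (6056 genes, 113 of them higher).

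**Figure D5:**
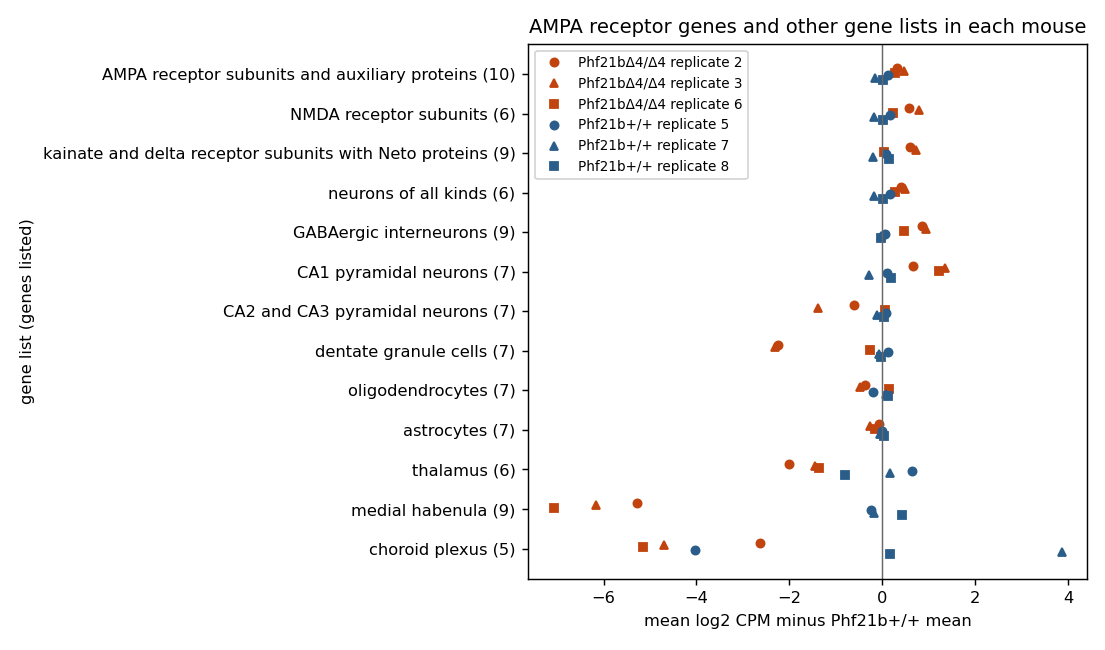
Mean over each gene list of log2 CPM minus the Phf21b+/+ mean of the gene (horizontal axis) in the 6 mice, with Phf21bΔ4/Δ4 mice in red and Phf21b+/+ mice in blue and the number of genes listed in brackets. The AMPA receptor genes and the neuron markers lie slightly right of 0 in Phf21bΔ4/Δ4 mice, and the dentate granule cell list lies far left of 0 in replicates 2 and 3 only.

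Promoter sequence from RefSeq (GRCm38.p6), reaching from 250 bases before to 50 bases after the start site, was at hand for 7 of the 10 genes. The cAMP response element TGACGTCA was found in 0 of these 7 and in 1.79% of all 32851 promoters, and its core TGACG, searched on both strands and contained in the full element, in 0 of the 7 and in 20.8% of all.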

How the data were processed

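Hippocampal RNA of 6 mice was analysed, with genotypes taken from the sample labels. The deposited values are log2 CPM of 14477 genes. For these the authors used Trimmomatic 0.39 on the reads, STAR 2.7.3a with GRCm38, and featureCounts (Subread 1.6.4) for counts over genes, removed genes that did not reach a CPM of 1 in 2 samples, and scaled by effective library size in edgeR. The genes are therefore those that passed that filter, and all 10 AMPA receptor genes did. Strandedness of the counting is not given in the sources used here. Whole reads were worked out from the deposited values (100.0% whole within a tolerance of 0.1, prior count 0.1). They gave the depth, the CPM, and the reads for voom. Depth on the listed genes was 20495605 to 24881257 reads per mouse, and 3 reads correspond to 0.127 to 0.143 CPM.

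Genotypes were compared on all genes with limma 3.58.1 in R 4.3.3 (lmFit, eBayes with trend, no covariate), 2-sided with Benjamini-Hochberg adjustment. The thresholds are those of the study's methods. FDR denotes the adjusted p. The test was checked on simulated data. Shares and ratios were tested by exact permutation over the 6 mice (SciPy 1.17.1). Exon lengths are merged exons of a GENCODE annotation of GRCm38, which matched 98.8% of the genes. It is an earlier release than the one the paper names, so levels per kb divide counts by lengths from another release.

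The genes named are the 10 AMPA receptor genes, *Phf21b*, any called gene of the 3 partner lists, the 2 largest differences among those not called in each list, and markers at 0 reads. *A730060N03Rik*, *Yif1a*, *Xist*, *Cacng4*, *Adarb1*, and *Grin2b* fall outside this rule and were chosen after their values were seen. The AMPA receptor genes and the lists were chosen with earlier results of these data known. Alternatives were other variance models, mouse weights, pseudocounts, a filter on low values, quantile and median normalization, voom, corrections for exon length, and leaving out each mouse. Correction for the GC content of the longest transcript and values relative to neuron markers were added after seeing the data. A correction for exon GC content from a genome sequence was not run.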

Additional observations from a re-analysis of the deposited data

How the results depend on the processing

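The 10 AMPA receptor genes were recomputed under 12 settings and with each of the 6 mice left out, which gave 180 log2 changes, of which 160 kept both their direction and their side of the threshold, 9 newly passed it, and 11 turned sign. The number of AMPA receptor genes called was 0 in the analysis as reported, 3 with mice weighted by arrayWeights (*Gria3*, *Gria4*, and *Cacng8*), and 1 each, *Gria3*, with centring on the median, with the exon length correction, and with the GC content correction. Leaving out each mouse gave 0 to 3 called genes, and the 3 (*Gria3*, *Gria4*, and *Cacng2*) came without Phf21bΔ4/Δ4 replicate 6, where 2830 of all genes (19.5%) were called. For the 32 partner genes the number was 0, 8 with weighted mice, and 0 to 8 with each mouse left out, the 8 again without Phf21bΔ4/Δ4 replicate 6. All genes called came to 176 as reported (80 higher), 3549 with weighted mice (24.5%), 75 with 1 prior variance for all genes, 101 when those averaging under 1 log2 CPM were left out, 6056 relative to neuron markers (113 higher), and 9 (without Phf21b+/+ replicate 8) to 2830 (without Phf21bΔ4/Δ4 replicate 6) with each mouse left out. With quantile normalization the log2 change of *Gria1* was -0.024 and that of *Cnih2* -0.053, and with weighted mice that of *Cnih2* was -0.001. Relative to neuron markers it was -0.123 for *Gria1*, -0.08 for *Gria2*, -0.098 for *Cacng2*, -0.273 for *Cnih2*, -0.156 for *Cnih3*, and -0.167 for *Shisa9*. With each mouse left out, *Cnih2* ranged from -0.082 to 0.312 and *Shisa9* from -0.169 to 0.53. The difference in share of the subunit pool ranged from -4.42 to 0.986 percentage points for *Gria1*, from -0.843 to 0.185 for *Gria2*, and from -0.658 to 2.05 for *Gria4* with each mouse left out. The cause of these shifts was not tested. No paired analysis was made because the labels give neither pairs of mice nor litters.

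With 3 mice per genotype and a Phf21bΔ4/Δ4 log2 range of up to 1.40, the 95% intervals of 8 of the 10 genes included 0, so a difference of moderate size could not be told from none. Each AMPA receptor gene had 388 reads or more in every mouse. Medial habenula markers (9 of 9) and CA1 markers (3 of 7) were called between genotypes, and their part in these values cannot be told apart from that of genotype. Most of these habenula markers and some of these CA1 markers are on the paper's list of differing genes from the same libraries. The counts called were therefore partly fixed in advance. Of dentate, CA2 and CA3, and choroid plexus markers none was called, and 1 of 6 thalamus markers was. In 5 of the 7 dentate markers every Phf21bΔ4/Δ4 mouse still lay below every Phf21b+/+ mouse, where 16.0% of all genes did. In 8 of the 9 interneuron markers every Phf21bΔ4/Δ4 mouse lay above every Phf21b+/+ mouse, where 15.0% of all genes did. The part of the dentate and interneuron markers cannot be told apart from that of genotype either.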
